A study of Mus musculus with 4 samples.

Results

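Heat shock proteins and their partner chaperones help other proteins to fold, and their genes were compared between endothelial cells (ECs, the inner lining of vessels) from dura mater and from brain. The genes were all entries whose symbol starts with Hspa, Hspb, Hspd, Hspe, Hsph, Hsp90 or Dnaj, or with Cct or Bag followed by a digit, with symbols holding -ps (pseudogenes) left out. This rule found 89 of the 23282 entries listed, and it used no measured value. Of these 89 genes, 67 had enough counts to be among the 9347 genes tested, 22 were not tested, and 10 had 0 counts in each library. In outline, the summed levels of the HSP70 and HSP90 families were higher in both dura mater libraries than in either brain library, as were Hspa5 and Hsp90aa1, while the small heat shock protein gene Hspb1 and the atypical HSP70 gene Hspa12b were lower. None of these named genes had an adjusted p under 0.05 in the main test, and the sums were not tested.

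The samples were 2 libraries of dura mater ECs and 2 of brain parenchyma ECs from C57BL/6J mice of 8 weeks, with no treatment or engineered allele named in the labels. The study's methods describe digestion of the tissue with collagenase and dispase at warm temperature, red cell lysis and sorting of cells by the EC protein CD31, with antibodies to the leukocyte protein CD45 and the red cell protein TER-119 in the same panel. Brain ECs alone were first enriched on magnetic beads, so tissue and isolation cannot be told apart. RNA was sequenced with a QuantSeq kit, which counts the 3′ ends of polyadenylated transcripts, and the study asked how dura mater ECs, which sprouted more readily, differ from brain ECs. How many mice gave each library is not given in the sources used here, so the spread between libraries may be technical, and in bulk samples fewer cells of a type cannot be told apart from less RNA per cell.

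As background, HSP70 proteins bind short greasy stretches of unfolded proteins and release them in a cycle driven by ATP. J-domain proteins (Dnaj) bring clients to HSP70 and start its ATP cleavage, while BAG and HSP110-type proteins make HSP70 let go of its nucleotide. HSP90 takes over late-stage clients such as kinases and steroid receptors, small heat shock proteins hold unfolding proteins without ATP, and the chaperonins (CCT in the cytosol, Hspd1 with Hspe1 in mitochondria) enclose proteins in a ring. Part of these genes answers to heat and other stress through heat shock factor 1 (HSF1), which binds the heat shock element, and the members of the endoplasmic reticulum (ER) answer to unfolded secretory proteins through the ER stress response element. In ECs, HSP90 is known to bind and activate the endothelial nitric oxide synthase. Stress-inducible HSP70 transcripts are also known to appear during warm tissue dissociation.

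Promoter windows, 250 bases before to 50 bases after an annotated start site, were listed by RefSeq (GRCm38.p6) for 73 of the 89 genes, and 5 of them are shown because they hold letters that match the elements described above. They belong to the inducible HSP70 genes (Hspa1a and Hspa1b), to the gene pair of the mitochondrial chaperonin (Hspe1) and to the ER members of the HSP70 and HSP90 families (Hspa5 and Hsp90b1), and Hspe1 was chosen after its values were seen. Capitals mark the heat shock element in the first 3 windows, searched as GAANNTTCNNGAA on both strands (exact in Hspe1, with 1 letter changed in Hspa1a and Hspa1b, and with overlapping matches merged), and the ER stress response element in the last 2, searched as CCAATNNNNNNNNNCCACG on both strands.
Hspa1a: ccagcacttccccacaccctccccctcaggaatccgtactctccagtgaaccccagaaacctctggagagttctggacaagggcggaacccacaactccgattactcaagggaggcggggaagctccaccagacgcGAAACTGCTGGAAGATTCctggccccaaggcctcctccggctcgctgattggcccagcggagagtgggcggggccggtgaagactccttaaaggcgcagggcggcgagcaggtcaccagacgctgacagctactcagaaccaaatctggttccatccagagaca
Hspa1b: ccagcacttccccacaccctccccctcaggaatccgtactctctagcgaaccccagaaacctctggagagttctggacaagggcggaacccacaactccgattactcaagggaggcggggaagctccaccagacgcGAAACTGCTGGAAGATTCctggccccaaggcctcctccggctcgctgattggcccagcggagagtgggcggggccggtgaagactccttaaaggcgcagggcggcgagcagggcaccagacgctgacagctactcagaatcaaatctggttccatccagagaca
Hspe1: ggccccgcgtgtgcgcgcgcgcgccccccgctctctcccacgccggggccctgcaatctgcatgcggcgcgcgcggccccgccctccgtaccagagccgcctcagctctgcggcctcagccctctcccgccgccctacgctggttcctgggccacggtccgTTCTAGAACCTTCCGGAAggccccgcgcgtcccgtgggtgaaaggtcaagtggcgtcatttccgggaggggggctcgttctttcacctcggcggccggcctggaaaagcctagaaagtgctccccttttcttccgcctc
Hspa5: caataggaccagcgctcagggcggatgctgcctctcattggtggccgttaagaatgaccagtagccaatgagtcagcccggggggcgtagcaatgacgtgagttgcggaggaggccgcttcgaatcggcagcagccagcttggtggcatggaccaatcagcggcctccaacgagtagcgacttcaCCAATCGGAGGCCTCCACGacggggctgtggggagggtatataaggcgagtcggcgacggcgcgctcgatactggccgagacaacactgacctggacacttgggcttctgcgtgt
Hsp90b1: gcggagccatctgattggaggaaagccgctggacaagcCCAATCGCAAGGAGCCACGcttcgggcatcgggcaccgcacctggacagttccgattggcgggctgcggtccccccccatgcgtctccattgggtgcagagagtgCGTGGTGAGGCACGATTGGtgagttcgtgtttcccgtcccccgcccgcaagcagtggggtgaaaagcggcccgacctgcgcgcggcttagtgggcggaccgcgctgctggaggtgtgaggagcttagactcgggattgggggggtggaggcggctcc

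The Hspa1a window lies at chr17:34972107-34972406 on the minus strand and the Hspa1b window at chr17:34959189-34959488 on the same strand. In both windows the element began 114 bases before the start site. The Hspe1 window lies at chr1:55087898-55088197 on the plus strand, and its element began 89 bases before the start. That window shares 285 bases with 1 of 2 windows of Hspd1, which is transcribed from the other strand, so the same matches lie in both. The other Hspd1 window shares 4 bases with it and holds no exact match, and the annotated genes overlap. The Hspa5 window lies at chr2:34771840-34772139 on the plus strand with its element beginning 65 bases before the start, and the Hsp90b1 window at chr10:86705395-86705694 on the minus strand with elements at 212 and 107 bases before the start.

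An exact heat shock element was present in a window of 4 of the 73 genes (5.48%: Dnajb6, Hspd1, Hspe1 and Hsph1), against 0.662% of the 27025 genes with a window. Hspd1 and Hspe1 hold the same matches. Hsp90aa1, Hsp90ab1 and Hspa8 had no window listed and were not searched. With 1 letter changed, 18 of the 73 genes held it (24.7%), against 8.15% of all genes. The ER element was found for 3 of the 73 (4.11%: Dnajc3, Hsp90b1 and Hspa5), against 0.137% of all genes. A match is a string of letters and not a measured site, and a window with no match says only that these letters are not in it.

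**Figure D1:**
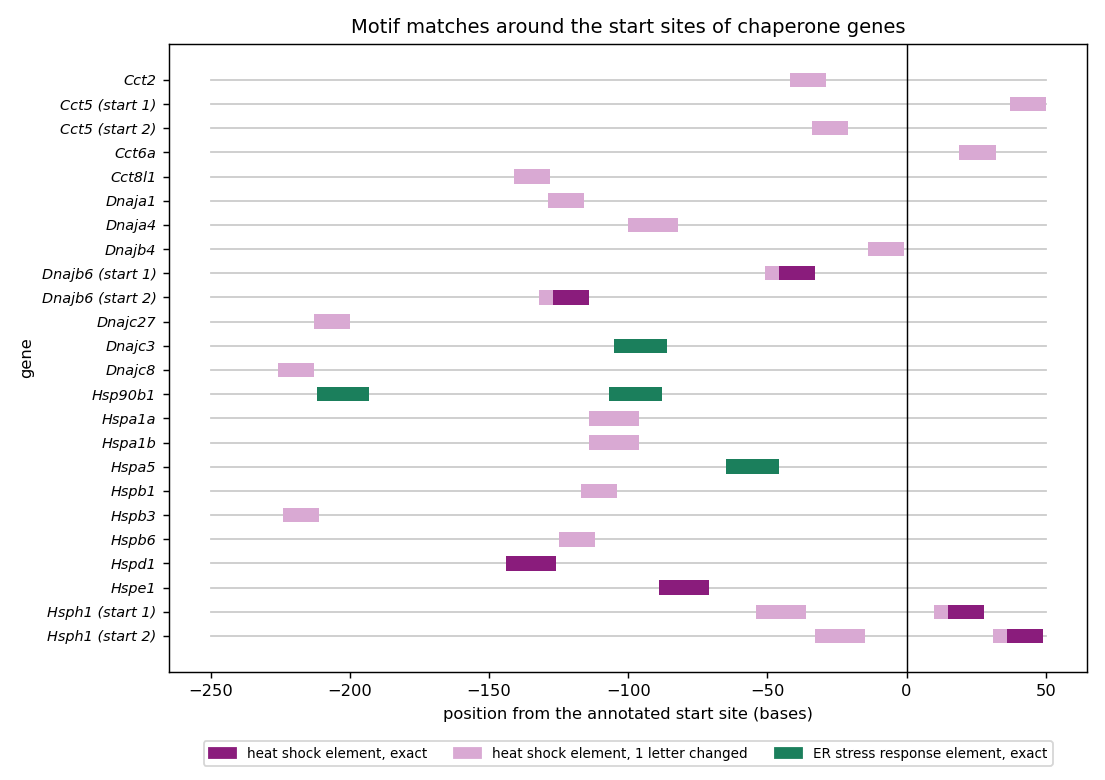
Positions of motif matches (bars, in bases from the annotated start site on the x axis) for each chaperone gene with a match (y axis), with numbered starts where windows differ. Exact heat shock elements of Hspe1 and Hspd1 lie upstream of their starts, and the ER elements of Hspa5, Hsp90b1 and Dnajc3 lie between 212 and 65 bases before the start.

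The libraries held 13518973 to 16096203 counts. The chaperone genes were better covered than most: 41 of 89 (46.1%) had at least 64 counts in each of the 4 libraries, against 18.3% of all entries. Pan-endothelial markers were present in every library, with Pecam1 at 8390 and 16125 counts in brain ECs against 14426 and 23619 counts in dura mater ECs, and summed CPM (counts scaled to a common library size by TMM, per 1000000) of 10 such markers was 9908 to 12451 in brain and 8577 to 10929 in dura mater ECs. Of 6 brain EC markers, 5 passed the test as lower in dura mater ECs. The leukocyte marker Ptprc was at or near 0, with 1 to 4 counts in each library.

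RNA of other cells and of immediate-early genes differed between the tissues, and its part in the results on chaperones was not tested. Summed hemoglobin and Alas2 transcripts were at 18013 and 25692 CPM in brain ECs and 1496 and 762 CPM in dura mater ECs. Of 6 fibroblast markers, 4 were tested and 1 passed (Mgp, which arterial ECs also express), with log2 fold changes above 0 for 4 of 4. The summed level was 2535 and 2226 CPM in brain against 11191 and 11225 CPM in dura mater, with Pdgfra at 0 or 1 count and Lum at 0 to 4 counts. Nearly all of this sum was Mgp, at 2532 and 2219 CPM in brain and 10961 and 10930 CPM in dura mater ECs. Dcn had 16 and 15 counts in brain and 1184 and 1664 counts in dura mater ECs, Col1a1 had 20 and 42 against 759 and 1237 counts, and Col1a2 had 4 and 31 against 1135 and 1913 counts. The 8 leukocyte markers summed to 51.0 and 50.3 CPM in brain and 44.7 and 29.4 CPM in dura mater ECs, with Cd3e at 0. Different genes made up these sums. Cd68 had 4 and 3 counts in brain and 550 and 441 counts in dura mater ECs. Csf1r had 4 and 646 against 28 and 9 counts, C1qa 436 and 1 against 2 and 25, and C1qb 289 and 4 against 2 and 0. The 6 mural cell markers summed to 369 and 899 CPM against 650 and 474 CPM. The 10 neuron and glia markers summed to 1109 and 1112 CPM against 298 and 127 CPM, with Aqp4 at 0. Most of that sum in brain was Mal, with 14592 and 14696 counts against 1952 and 1829 counts. The immediate-early genes, a list of 26 that can answer to handling within minutes, share no gene with the chaperones. They summed to 16568 and 17407 CPM in brain ECs and 47301 and 47852 CPM in dura mater ECs. Log2 fold changes were above 0 for 23, and 5 passed the test (Ier3, Egr1, Fosb, Zfp36 and Junb). How much of this came from handling was not tested.

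No chaperone gene passed the quasi-likelihood test of edgeR at an adjusted p under 0.05 (0 of 67), where 0.610% of all 9347 tested genes did. At an unadjusted p under 0.05, 4 of 67 (5.97%) were found, against 10% of all tested genes: Hsp90aa1, Hspa5 and Hspa2, higher in dura mater ECs, and Hspa12b, lower. DESeq2 called 3 of 67 (4.48%) at an adjusted p under 0.05 (Hspa2, Hsp90aa1 and Hspa5), against 8.63% of all. Under each of these rules the share of chaperone genes was below that of all tested genes.

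Direction was described by overlap. For 21 of 67 genes (31.3%) both dura mater libraries were above both brain libraries, against 26.2% of all tested genes, and for 5 of 67 (7.46%) both were below, against 16.9%. The log2 fold change was above 0 for 40 of 67 (59.7%), against 49.8%, and the median was 0.38 for the chaperones and -0.01 for all tested genes. An exact permutation test over 2 against 2 libraries cannot go below p = 0.333, so no single value can pass it.

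**Figure D2:**
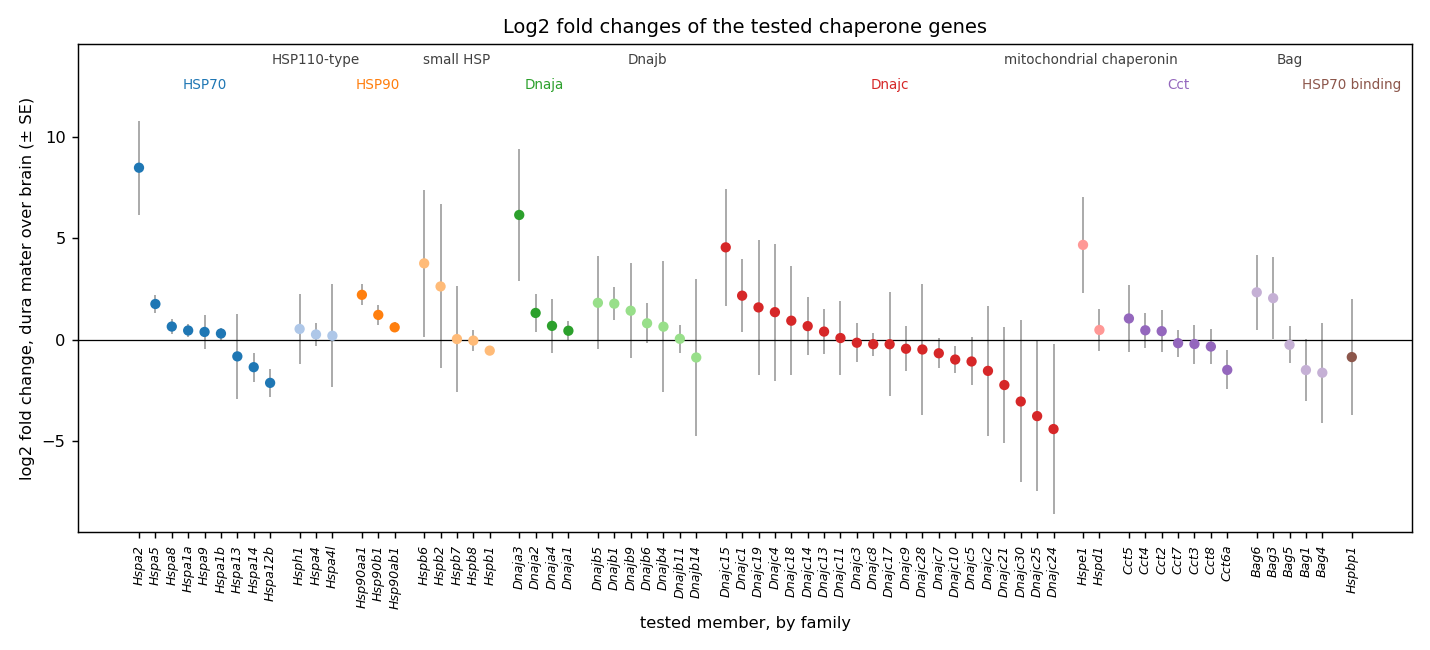
Log2 fold change of dura mater over brain ECs (y axis, points, with SE bars) for each of the 67 tested chaperone genes (x axis, grouped by family). Short bars and positive values mark the HSP90 genes and Hspa5, and wide bars belong to genes found in only some libraries, such as Dnajc24 and Hspb2.

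The inducible cytosolic HSP70 genes, Hspa1a and Hspa1b, were high in every library. Hspa1a had 26526 and 19552 counts in brain ECs against 25921 and 42265 counts in dura mater ECs, which is 1654 ± 249 CPM and 2261 ± 464 CPM (SD, n = 2 each). The scaled groups did not overlap but lay close, with 1830 CPM in the higher brain library and 1933 CPM in the lower dura mater library. Its log2 fold change was 0.45 (0.30 SE, adjusted p = 0.757 in edgeR).

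Hspa1b, its neighbor with an almost identical protein, had 13589 and 11505 counts in brain and 14452 and 18779 counts in dura mater ECs. Both dura mater libraries were above the brain libraries after scaling, by a log2 fold change of 0.30 (± 0.30 SE, adjusted p = 0.968 in edgeR). Counts of Hspa1a were 1.95, 1.70, 1.79 and 2.25 times those of Hspa1b in brain replicates 1 and 2 and dura mater replicates 1 and 2, so this ratio, chosen after the values were seen, overlapped between the tissues. The last 300 bases of their transcripts share no stretch of 50 bases, while 19% of the exons of Hspa1a overlap an antisense gene, Gm20481, whose reads cannot be told apart without strand.

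Dnajb1, the J-domain partner that is induced together with Hspa1a under heat shock, had 572 and 2751 counts in brain ECs against 7066 and 5240 counts in dura mater ECs. Both dura mater libraries were higher. As a ratio, the brain libraries stood further from each other (39.5 and 208 CPM) than the dura mater libraries did (527 and 321 CPM). By SD they did not, at 119 CPM in brain and 146 CPM in dura mater ECs. The log2 fold change was 1.78 (0.81 SE, adjusted p = 0.490 in edgeR), and it was 0.99 without brain replicate 1 and 3.37 without brain replicate 2.

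Hspa8, the constitutive cytosolic HSP70, had 6799 and 5886 counts in brain and 8085 and 13490 counts in dura mater ECs. Its groups did not overlap after scaling, at 457 ± 17.1 CPM and 715 ± 158 CPM (SD, n = 2 each), with a log2 fold change of 0.64 (± 0.35 SE, adjusted p = 0.609 in edgeR). Of the 50-base stretches at its 3′ end, 73.7% also occur in other transcripts, mostly pseudogenes, so its counts depend on how such reads were assigned.

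**Figure D3:**
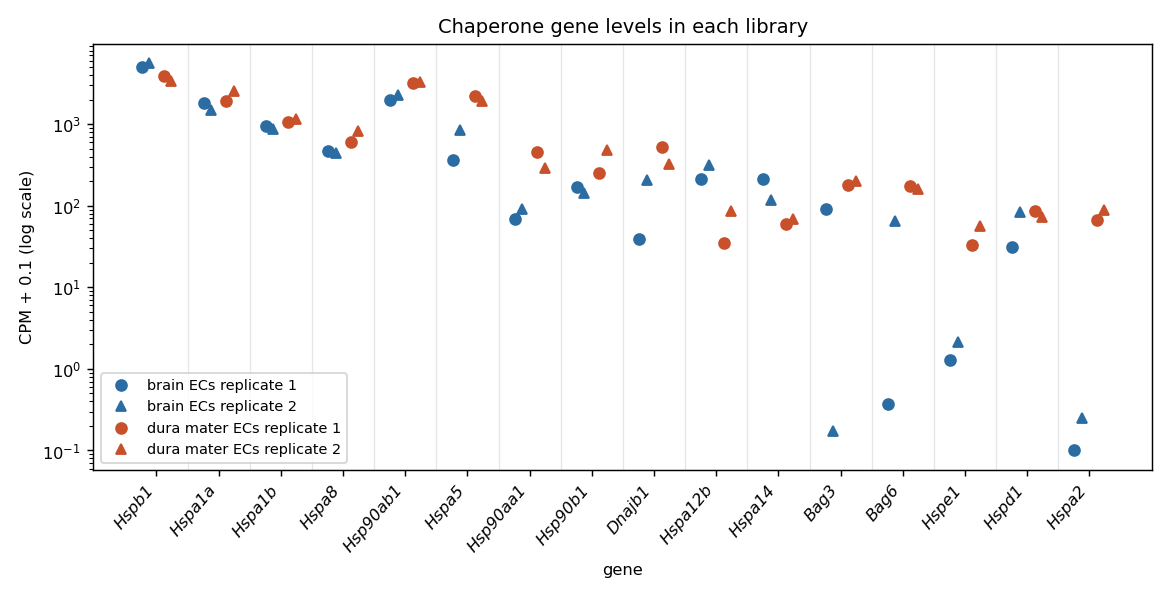
CPM plus 0.1 (y axis, log scale) of 16 chaperone genes (x axis) in each of the 4 libraries, with blue for brain ECs, orange for dura mater ECs, circles for replicate 1 and triangles for replicate 2. Hspa5 and Hsp90aa1 are higher in both dura mater libraries, Hspb1 and Hspa12b are lower in both, and Bag3 and Bag6 are each near the floor in 1 brain library.

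Hspa5 (BiP), the HSP70 of the ER and a brake on its stress sensors, had 5306 and 11312 counts in brain ECs against 29769 and 31310 counts in dura mater ECs. The lower dura mater library held 1918 CPM and the higher brain library 855 CPM, with the brain libraries a factor of more than 2 apart. The log2 fold change was 1.76 (0.46 SE, adjusted p = 0.271 in edgeR). Over 14 alternatives the log2 fold change ran from 1.23 to 2.44 and the adjusted p from 3.5e-05 to 0.711, with 7 of the 14 under 0.05.

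Among the other HSP70 genes, Hspa2, a member best known from male germ cells, was split between the tissues, with 0 and 2 counts in brain ECs and 884 and 1434 counts in dura mater ECs. Summed over libraries this is 2 against 2318 counts, a ratio of 1081 with an exact 95% interval of 298.8 to 8928 that covers counting error only. The fitted log2 fold change of 8.49 (± 2.31 SE, adjusted p = 0.306 in edgeR) depends on the prior count. It was called in 3 of 13 alternatives, with adjusted p from 3.0e-05 to 0.793.

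Hspa12b, an atypical HSP70 known for its expression in ECs and its part in vessel formation, went the other way. It had 3095 and 4165 counts in brain ECs against 465 and 1393 counts in dura mater ECs, with no overlap. The log2 fold change was -2.14 (0.68 SE, adjusted p = 0.413 in edgeR), and over 14 alternatives the adjusted p ran from 0.013 to 0.771, with 1 under 0.05 (without brain replicate 1). Hspa14, which sits with a J-domain protein on ribosomes, had 3063 and 1565 counts in brain and 794 and 1126 counts in dura mater ECs (fitted log2 difference -1.36 with 0.71 SE, adjusted p = 0.572 in edgeR).

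The remaining HSP70 genes gave no split between tissues. Hspa9, the mitochondrial HSP70, had 690 and 1362 counts in brain and 1335 and 1572 counts in dura mater ECs, and its groups overlapped. Hspa13 overlapped as well, and Hspa12a and Hspa1l were not tested, with 296 and 205 counts in dura mater replicate 2 and at most 2 counts elsewhere.

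The HSP90 genes were higher in both dura mater libraries for 3 of 3, where 26.2% of all tested genes were. Hsp90aa1, the stress-inducible cytosolic form, had 1001 and 1222 counts in brain ECs against 6202 and 4678 counts in dura mater ECs. The groups were far apart, at 80.7 ± 16.5 CPM and 375 ± 124 CPM (SD, n = 2 each). The log2 fold change was 2.21 (0.52 SE, adjusted p = 0.233 in edgeR), with 1.68 to 2.50 and adjusted p from 0.0057 to 0.771 over 14 alternatives, 5 of them under 0.05. Of the 50-base stretches at its 3′ end, 37.6% also occur in pseudogene transcripts.

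Hsp90ab1, the constitutive form, had 29121 and 30014 counts in brain and 43419 and 53553 counts in dura mater ECs. Its groups were separate and tight, at 2139 ± 184 CPM and 3259 ± 30.1 CPM (SD, n = 2 each), with a log2 fold change of 0.61 (± 0.25 SE, adjusted p = 0.466 in edgeR). The ratio of Hsp90aa1 to Hsp90ab1 counts within a library, chosen after the values were seen, was 0.0344 and 0.0407 in brain ECs against 0.143 and 0.0874 in dura mater ECs. This ratio needs no scaling between libraries, and its groups did not overlap.

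Hsp90b1 (GRP94), the HSP90 of the ER, had 2462 and 1890 counts in brain and 3358 and 7812 counts in dura mater ECs. Dura mater replicate 2 stood well above the other 3 libraries. The log2 fold change was 1.22 (0.51 SE, adjusted p = 0.466 in edgeR), and it was 0.66 without dura mater replicate 2. Of its exons, 10.3% overlap an antisense gene.

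The small heat shock proteins were dominated by Hspb1. Hspb1 (HSP25), which holds unfolding proteins and binds the actin skeleton, had 73723 and 73768 counts in brain ECs against 52599 and 55434 counts in dura mater ECs. Both dura mater libraries were lower, at 3659 ± 372 CPM against 5331 ± 347 CPM (SD, n = 2 each), with a log2 fold change of -0.54 (± 0.24 SE, adjusted p = 0.473 in edgeR). The ratio of Hspa1a to Hspb1 counts was 0.360 and 0.265 in brain and 0.493 and 0.762 in dura mater ECs, without overlap. The ratio of Hspa1a to Hspa8 counts went the other way without overlap, at 3.90 and 3.32 in brain and 3.21 and 3.13 in dura mater ECs. Both ratios were chosen after the values were seen.

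Other small heat shock genes showed no separation. Hspb8, which works with Bag3 in the removal of damaged filaments, had 2517 and 4100 counts in brain and 3616 and 3239 counts in dura mater ECs. Its log2 fold change of -0.05 (± 0.51 SE, adjusted p = 1 in edgeR) turned to 0.0042 under scaling by library size. Hspb7 had 51 to 265 counts, Hspb2 and Hspb6 were each at 0 in at least 1 library, Hspb11 had 825 counts in brain replicate 2 and at most 3 elsewhere, and Hspb3 and Hspb9 were at 0 throughout.

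Of the type A J-domain genes, 3 of 4 were higher in both dura mater libraries, and of the type B genes, 4 of 7 tested were, where 26.2% of all tested genes were. Dnaja2 had 2071 and 293 counts in brain and 2901 and 3188 counts in dura mater ECs (fitted log2 difference 1.32 with 0.92 SE, adjusted p = 0.799 in edgeR). Leaving out a library moved it from 0.47 without brain replicate 2 to 3.16 without brain replicate 1, where alone of its alternatives it was called (adjusted p = 0.0088, with a range of 0.0088 to 0.925 over alternatives in edgeR, DESeq2 and limma). Dnaja1 had 2744 and 5171 counts in brain and 5695 and 5903 counts in dura mater ECs, and Dnaja4 had 353 and 674 against 718 and 1097 counts. The groups of Dnaja1 overlapped after scaling, 52.3% of its 3′ stretches also occur elsewhere, and 44.1% of the exons of Dnaja4 overlap Wdr61.

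Dnajb6, which keeps proteins prone to form amyloid in solution, had 553 and 836 counts in brain and 1213 and 1422 counts in dura mater ECs. Its groups were separate (fitted log2 difference 0.81 with 0.98 SE, adjusted p = 1 in edgeR). Dnajb11, a J-domain protein that serves Hspa5 in the ER, had 1353 and 1530 against 1307 and 1921 counts, and its log2 fold change was 0.04 and turned negative under RLE scaling (-0.05). Of the 6 Dnajb genes without a test, 3 were at 0 throughout, and Dnajb2 and Dnajb12 had 176 and 170 counts in dura mater replicate 2 and at most 2 elsewhere.

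The Dnajc genes, the largest and most diverse group with 28 members, leaned the other way or showed no order. Of 21 tested, 8 had a log2 fold change above 0 and 13 below, where 49.8% of all tested genes were above 0. Without overlap 2 were higher and 1 lower, where 26.2% and 16.9% of all tested genes were, and 18 overlapped. Dnajc8, a partner of splicing factors, had 5446 and 2167 counts in brain and 3701 and 3027 counts in dura mater ECs. Dnajc10, an ER protein that reduces disulfide bonds, had 4615 and 1828 against 2063 and 1255 counts, and Dnajc7, which binds both HSP70 and HSP90, had 1341 and 5125 against 2016 and 2455 counts.

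In each of these 3 Dnajc genes the brain libraries differed by more than 2-fold, and the direction of Dnajc7 and Dnajc8 turned when 1 library was left out. Dnajc15, a J-domain protein of the mitochondrial inner membrane, had 5 and 6 counts in brain ECs against 222 and 139 counts in dura mater ECs. With Hspa2 it was 1 of 2 chaperone genes with at most 7 counts in both libraries of brain and at least 64 in both of dura mater, and none showed the reverse, against 761 and 47 of all entries. Dnajc24, which helps to build diphthamide, had 652 and 0 counts in brain and 0 and 30 counts in dura mater ECs, and no tissue level can be read from it.

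Nucleotide exchange factors of the BAG family showed wide gaps between replicates in brain ECs. Bag3, an HSF1 target that couples HSP70 to autophagy, had 1318 and 1 counts in brain ECs against 2381 and 3264 counts in dura mater ECs. Bag6, which guards membrane proteins before insertion, showed the mirror image in brain, with 4 and 864 counts, and 2332 and 2587 counts in dura mater ECs. For both genes the dura mater libraries lay close together and the brain libraries did not, and the log2 fold changes were 2.05 (2.02 SE, adjusted p = 0.968 in edgeR) for Bag3 and 2.34 (1.85 SE, adjusted p = 0.885 in edgeR) for Bag6. With a library left out these values ran from 0.99 to 9.75 for Bag3, the highest without brain replicate 1, and from 1.30 to 8.61 for Bag6, the highest without brain replicate 2.

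Bag5 had 1550 and 798 counts in brain and 939 and 1139 counts in dura mater ECs, with overlap. Bag1, which binds HSP70 and the death suppressor BCL2, had 710 and 949 against 260 and 376 counts and was lower in both dura mater libraries (fitted log2 difference -1.50 with 1.52 SE, adjusted p = 0.971 in edgeR). The HSP110-type genes overlapped for 3 of 3. Hspa4 had 2634 and 1403 counts in brain and 2019 and 3151 counts in dura mater ECs, and Hsph1 had 110 and 931 against 206 and 1585 counts. Hspbp1, which also acts on the HSP70 cycle, had 803 and 28 counts in brain and 2 and 512 counts in dura mater ECs.

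**Figure D4:**
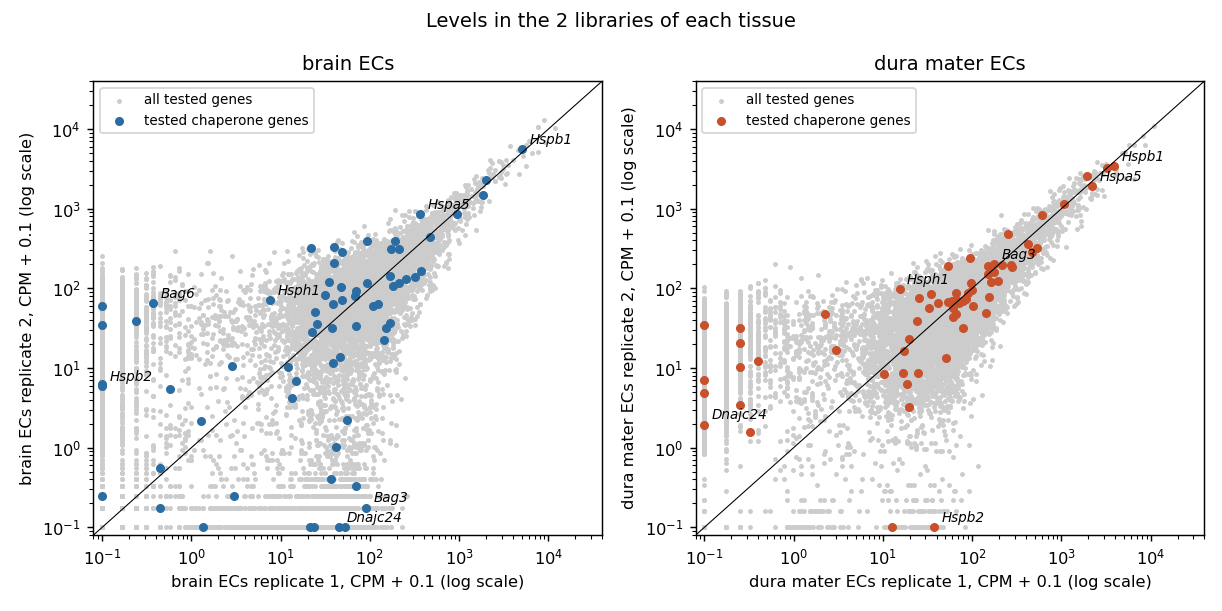
CPM plus 0.1 of replicate 2 (y axis, log scale) against replicate 1 (x axis, log scale) in brain ECs (left) and dura mater ECs (right), for all tested genes in grey and the chaperone genes in color, with the line of equal values. High genes such as Hspb1 lie on the line, while Bag3, Bag6 and Dnajc24 lie far from it in brain ECs.

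Such absence of a transcript from 1 of 2 libraries was common in the whole series. Among chaperone genes with at least 64 counts in 1 brain library, 16 of 63 (25.4%) had at most 7 counts in the other, against 31.3% of all entries. In dura mater ECs it was 14 of 69 (20.3%), against 30.7%. Where both libraries had at least 64 counts, replicates of chaperone genes differed by a median of 1.96-fold in brain and 1.35-fold in dura mater ECs, against 1.78-fold and 1.67-fold for all entries.

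Of the mitochondrial chaperonin genes, 1 of 2 was higher in both dura mater libraries, where 26.2% of all tested genes were. Hspe1 (HSP10), the lid of the mitochondrial chaperonin, had 17 and 27 counts in brain ECs against 440 and 919 counts in dura mater ECs, a log2 fold change of 4.68 (± 2.39 SE, adjusted p = 0.554 in edgeR). Hspd1 (HSP60), its barrel, had 450 and 1094 counts in brain and 1143 and 1194 counts in dura mater ECs, and its groups overlapped after scaling (fitted log2 difference 0.48 with 1.05 SE, adjusted p = 1 in edgeR). The genes share the promoter region shown above. The ratio of Hspe1 to Hspd1 counts, also chosen after the values were seen, was 0.0378 and 0.0247 in brain ECs. In dura mater ECs it was 0.385 and 0.770. Pseudogene transcripts share 43.8% of the 3′ stretches of Hspe1 and 39.2% of those of Hspd1, and the share of their reads that was counted is not given in the sources used here.

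The cytosolic chaperonin CCT, which folds actin and tubulin, showed no common direction. Of 7 tested Cct genes, 6 overlapped between tissues and 1 (Cct5) was higher in both dura mater libraries, against 26.2% of all tested genes. Cct7 had 3631 and 1729 counts in brain and 1281 and 3949 counts in dura mater ECs, Cct3 had 574 and 4349 against 2593 and 2018 counts, and Cct4 had 2447 and 487 against 2185 and 1964 counts. Subunits of this ring are needed in equal amounts, yet in brain ECs the library that was lower changed from subunit to subunit. Cct6a had 712 and 3757 counts in brain and 819 and 927 counts in dura mater ECs (fitted log2 difference -1.50 with 0.96 SE, adjusted p = 0.736 in edgeR). Cct6b, known from testis, and Cct8l1 were at 0 in each library.

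Summed over families, single gaps can weigh less, though they stay in the sums. HSP70 genes summed to 4121 and 4198 CPM in brain ECs and 6110 and 6869 CPM in dura mater ECs, a ratio of means of 1.56. Of 9 tested HSP70 genes, 5 were higher, 2 were lower and 2 overlapped. Of all tested genes, 26.2% were higher and 16.9% lower. HSP90 genes summed to 2248 and 2504 CPM against 3951 and 4045 CPM (ratio 1.68), and the small heat shock genes to 5273 and 5965 CPM against 4249 and 3617 CPM (ratio 0.700). In these 3 families the gap between tissues was wider than the gap between replicates.

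Sums of Dnaja (ratio 1.67), Dnajb (2.24), mitochondrial chaperonin (2.12) and Bag genes (1.96) were also higher in both dura mater libraries, and the sum of Dnajc genes was lower in both (0.780). The Bag sum includes Bag3 and Bag6, at 0.076 CPM in brain replicate 2 and 0.28 CPM in brain replicate 1. Of 5 tested Bag genes, 2 had a log2 fold change above 0 and 3 below, with a median of -0.26. Of all tested genes, 49.8% were above 0. Sums of Cct genes (823 and 887 against 706 and 847 CPM) and of HSP110-type genes (192 and 177 against 166 and 293 CPM) overlapped. All 89 genes together took 1.49% and 1.57% of the brain EC counts against 1.83% and 1.88% of the dura mater EC counts. These sums follow their most counted genes, and no test was made on them.

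**Figure D5:**
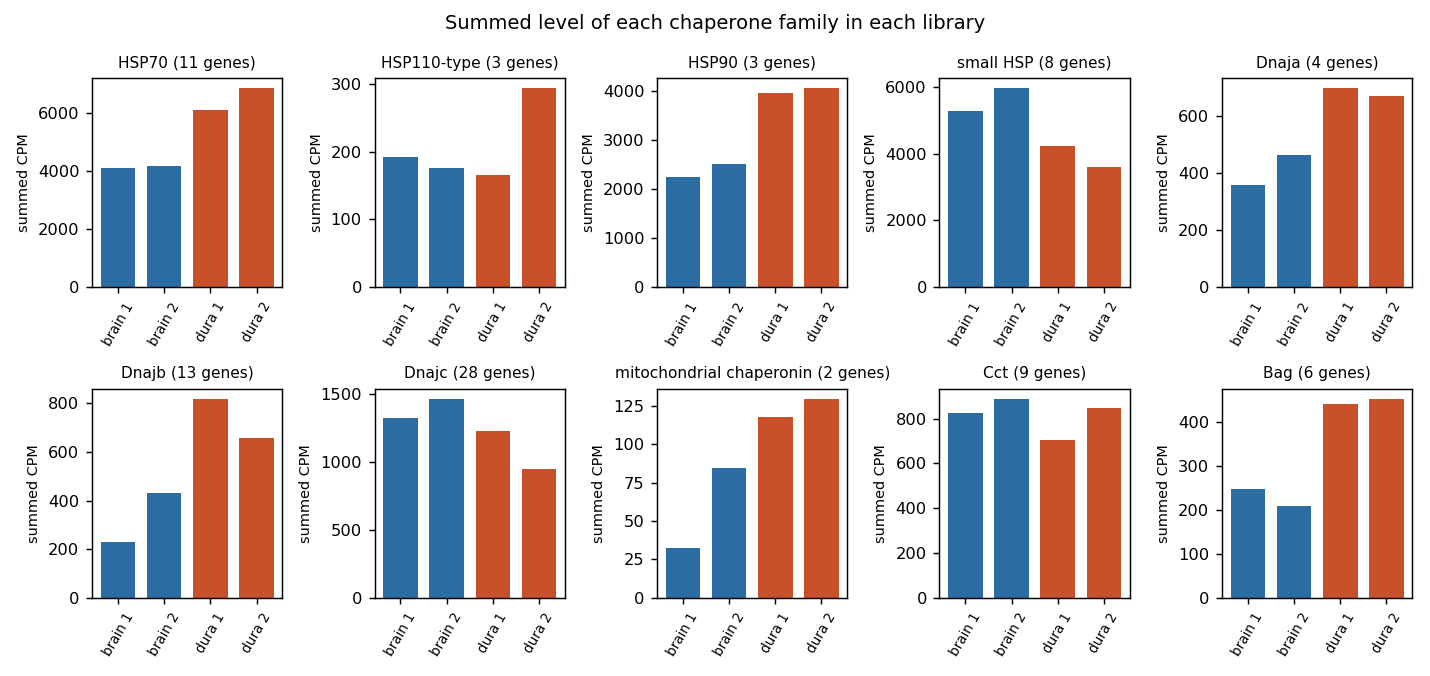
Summed CPM (y axis, from 0) of each chaperone family in each library (x axis), with blue for brain and orange for dura mater ECs. HSP70, HSP90, Dnaja, Dnajb, mitochondrial chaperonin and Bag bars are higher in both dura mater libraries, small HSP and Dnajc bars are lower, and Cct and HSP110-type bars overlap.

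By compartment, a grouping made after the values were seen, 8 genes of the ER (Hspa5, Hsp90b1 and their J-domain partners among them) summed to 1102 and 1385 CPM in brain ECs and 2985 and 2789 CPM in dura mater ECs. Of these 8, 4 were higher in both dura mater libraries and 0 were lower in both, where 26.2% and 16.9% of all tested genes were. The sum of ER genes was mostly Hspa5. Left out of it were Dnajb14, Dnajc14, Dnajc18 and Dnajc25, whose proteins are also placed in the ER. Their log2 fold changes were -0.88, 0.67, 0.93 and -3.78, and the groups of each overlapped. A set of 6 mitochondrial genes held Hspd1, Hspe1, Hspa9, Dnaja3, Dnajc15 and Dnajc19. It summed to 80.5 and 194 CPM in brain and 239 and 298 CPM in dura mater ECs. The log2 fold change was above 0 for 6 of 6, against 49.8% of all tested genes. Both dura mater libraries were higher for 3. This set left out Dnajc11, Dnajc28 and Dnajc30, whose proteins are also placed in mitochondria, at log2 fold changes of 0.08, -0.49 and -3.06.

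The wider pathway was followed in lists of genes outside the naming rule. Of their 42 tested genes, 0 passed the edgeR test, where 0.610% of all 9347 tested genes did. Of the heat shock factors and their regulators, 3 of 8 listed were tested. Hsf1, the main activator of the heat shock genes, had 2125 and 1 counts in brain and 245 and 235 counts in dura mater ECs, and Hsbp1, which restrains it, had 3479 and 1159 against 1278 and 1653 counts, so neither gave a direction.

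The ER folding list leaned toward dura mater ECs, with 10 of 14 tested genes above 0, against 49.8% of all tested genes. Its median log2 fold change was 0.67, against -0.01 for all tested genes. Atf4, the transcription factor made when translation is throttled, had 4389 and 3900 counts in brain ECs against 20703 and 18139 counts in dura mater ECs. Both tissues were tight and far apart, with a log2 fold change of 2.15 (± 0.35 SE, adjusted p = 0.074 in edgeR), and 8 of 14 alternatives had an adjusted p under 0.05 (2.9e-05 to 0.349).

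Xbp1, the factor spliced by the ER sensor IRE1, had 879 and 507 counts in brain and 2770 and 2744 counts in dura mater ECs (fitted log2 difference 1.92 with 0.70 SE, adjusted p = 0.466 in edgeR). Pdia3, a disulfide isomerase for glycoproteins, had 1134 and 1067 against 3021 and 2494 counts (1.25, 0.62 SE, adjusted p = 0.537 in edgeR). Both were higher in each dura mater library. Other genes of that response did not follow: Ddit3 (CHOP), a target of ATF4, had 600 and 1310 counts in brain and 650 and 1468 counts in dura mater ECs, and Herpud1, which aids the removal of ER proteins, had 2960 and 4499 against 1923 and 2687 counts and was lower in both. Ddit3 and Herpud1 were chosen after their values were seen.

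Partners of HSP70 and HSP90 outside the naming rule showed no common direction, with 10 of 20 tested genes above 0 and 10 below. Trap1, the HSP90 of mitochondria, had 1 count in each brain library and 605 and 153 counts in dura mater ECs (fitted log2 difference 7.02 with 2.94 SE, adjusted p = 0.466 in edgeR). Fkbp4, a cochaperone of steroid receptors, had 2924 and 2445 counts in brain and 1436 and 1703 counts in dura mater ECs, lower in both. Cdc37l1 had 4728 and 1505 against 519 and 2127 counts and overlapped.

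Prefoldin, which hands actin and tubulin to CCT, was without a common direction too, with 2 of 5 tested genes above 0 and 3 below. Pfdn5 had 1308 and 1285 counts in brain and 2735 and 1463 counts in dura mater ECs, and overlapped after scaling. Pfdn6 had 703 and 623 against 103 and 398 counts and was lower in both dura mater libraries, and Pfdn1 had 814 and 1738 against 781 and 1062 counts.

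The promoter elements were then set beside the levels, as a description. Of the 4 genes with an exact heat shock element, Hspe1 and Dnajb6 were higher in both dura mater libraries, and Hspd1 and Hsph1 overlapped. Of the 18 genes with at most 1 letter changed, 15 were tested, of which 6 were higher in both dura mater libraries (Hspa1a, Hspa1b, Hspe1, Dnajb6, Dnaja4 and Cct5), 1 was lower in both (Hspb1) and 8 overlapped, where 26.2% of all tested genes were higher and 16.9% lower. Of the 3 genes with the ER element, Hspa5 and Hsp90b1 were higher in both dura mater libraries, and Dnajc3, an ER protein that inhibits the kinase PERK, overlapped with 974 and 1051 counts in brain and 840 and 1129 counts in dura mater ECs.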

How the data were processed

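Whole-number counts per gene symbol were used as deposited by the authors, in 1 table per library. The submitters' processing notes name Bowtie2, edgeR and the build mm10, and the study's methods name TopHat and cufflinks. The step from alignments to counts, the annotation, and the use of strand or molecular identifiers are not given in the sources used here, so genes that share reads may be miscounted. Groups and replicate numbers came from the sample titles. The tables held 23282 entries, and 79 lines repeat a symbol and were each tested as their own gene.

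In R 4.3.3, edgeR 4.0.16 was fitted to all 4 libraries with TMM scaling, filterByExpr, tissue as the only term and its quasi-likelihood test (two-sided, Benjamini-Hochberg over 9347 genes, threshold 0.05, prior count 2 for fold changes), in place of cufflinks, which needs alignments. The SE is the log2 fold change divided by the root of F. The common biological coefficient of variation was 1.39. CPM are counts divided by the scaled library size, per 1000000, and mean ± SD is over n = 2. The code was tested on simulated data. Alternatives were DESeq2 1.42.0, limma 3.58.1 (voom), a newer edgeR dispersion estimate, RLE and library size scaling, other filters, a prior count of 0.5, a replicate block and each library left out in turn. A sum of Hspa1a and Hspa1b was added after seeing the data.

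Gene positions, exon overlaps and 3′ ends came from GENCODE M21 (GRCm38), and promoter windows from RefSeq (GRCm38.p6). No protein sequence was used here. Genes named were Hspa1a, Hspa1b and Dnajb1, the 6 smallest p in each direction, the 3 highest of each family, genes found in 1 tissue only (at least 64 counts against at most 7), and the 3 smallest p of each pathway list, 1 of which is not reported here. Hspa8, Hspa9, Bag1, Dnajc3, Ddit3, Herpud1, Cct5 and genes named for low counts were chosen after their values were seen. The members and lists were chosen with earlier results of these data known.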

Additional observations from a re-analysis of the deposited data

How the results depend on the processing

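With 2 libraries per tissue and wide gaps between them, calls moved with the method. Of 662 results of named genes under alternatives, 584 kept direction and side of the threshold, 37 gained a call and 41 turned direction. These 41 came from 21 of the 48 named genes. Chaperone genes called were 3 with DESeq2 (of 807 genes in all), 2 with the newer dispersion estimate (306), 2 with no filter (326), 1 with limma-voom (80) and 1 with at least 10 counts in every library (141), always from Hspa5, Hsp90aa1 and Hspa2. Pathway genes called were 3 with DESeq2 and 2 in each of these other fits. Leaving out a library gave 0 to 9 chaperone calls and 0 to 4 pathway calls: 9 of 76 and 4 without brain replicate 1 (6.38% of all genes), 5 of 74 and 3 without brain replicate 2 (6.05% of all), with the lone brain library assumed to vary like the dura mater libraries. The median log2 fold change was 0.28 with DESeq2 and with RLE scaling, where that of all genes was -0.10, and 0.047 (without dura mater replicate 2) to 0.61 with a library left out. It was above that of all genes in limma-voom (0.45 against 0.28), with the replicate block (0.44 against 0.25) and with no filter (0.35 against 0.27), and below it without brain replicate 1 (0.59 against 1.03) and without brain replicate 2 (0.61 against 0.95).

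Whether equal replicate numbers mark paired libraries is not given in the sources used here. Replicate 1 minus replicate 2 had r = -0.02 between tissues across genes. With many transcripts absent from 1 of 2 libraries, this value cannot exclude pairing. A fit with a replicate block called 1 chaperone gene (Hspa5), 2 pathway genes and 224 genes in all, against 57 genes in the main fit. Directions that turned were those of Cct3 (0.47 in limma-voom, 0.43 with the block), Dnajb11 (-0.053 in DESeq2 and with RLE, -0.00054 with no filter), Hspb7 (-0.60 in limma-voom, -0.068 with the newer dispersion, -0.49 with the block), Hspb8 (0.0042 with library size scaling, 0.013 with at least 10 counts) and Hsf1 (1.94 in limma-voom, 1.41 with the block). The cause was not tested.

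With a library left out, log2 fold changes ran across 0 for Bag5 (-0.68 to 0.16), Cct3 (-1.09 to 1.94), Cct4 (-0.31 to 1.90), Cct6a (-2.31 to 0.20), Cct7 (-1.01 to 0.30), Dnaja1 (-0.036 to 0.99), Dnajb11 (-0.16 to 0.14), Dnajc24 (-7.28 to 2.88), Dnajc7 (-1.41 to 0.64), Dnajc8 (-0.76 to 0.45), Hsbp1 (-1.35 to 0.12), Hsf1 (-3.21 to 6.24), Hspa4 (-0.15 to 0.64), Hspa4l (-2.51 to 2.64), Hspb7 (-1.94 to 0.79), Hspb8 (-0.45 to 0.37), Hspbp1 (-6.62 to 2.73), Hspd1 (-0.11 to 1.29), Hsph1 (-1.36 to 2.78), Pfdn1 (-1.14 to 0.069) and Pfdn5 (-0.21 to 1.10).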
